A study of Mus musculus with 12 samples.

Results

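The 31 genes of sterol and fatty acid synthesis examined here were found among the 27670 genes named on a mouse microarray, by matching each gene's symbol to the gene name of every non-control probe (Msmo1 also under its older name Sc4mol). All 31 genes had a probe, and together they had 62 probes. They comprise 7 enzymes of the mevalonate pathway, 11 enzymes that carry farnesyl diphosphate through squalene to cholesterol, 7 genes of regulation and cholesterol transport, and 6 genes of fatty acid synthesis. The filter on dim and rejected spots left 29 of them to be tested among 15061 genes. Ebp was left out because the scanner software rejected its spot on most arrays before 4-OHT, and Scd1 because its probe was below background in all 4 groups.

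The cells were PUER cells, an IL-3-dependent mouse myeloid progenitor line that lacks its own PU.1 and carries a fusion of PU.1 to the estrogen receptor. The estrogen receptor ligand 4-hydroxytamoxifen (4-OHT) switches the fusion on, after which the cells begin to differentiate. There were 4 groups of 3 arrays (A, B and C). The shRNA cells, transduced with a retroviral vector carrying a short hairpin RNA against Hnrnpa0, were sampled after 24 h in 2 nM 4-OHT and before it, and the control cells, transduced with a control vector, likewise after 24 h in 2 nM 4-OHT and before it. Every group carried the PU.1 fusion and a GFP vector on which the cells had been sorted, and all were grown with IL-3. Per the series' design text the 3 experiments used different clones for each vector. The samples before 4-OHT were taken ahead of the exposure, so no group here is a culture kept for 24 h in vehicle.

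The 12 arrays correlated at 0.990 to 0.995 within a group and 0.953 to 0.992 between groups, and the share of spots called well above background ran from 50.3% to 55.7%. Hnrnpa0, the gene the hairpin targets, read 0.56, 0.65 and 0.46 after 4-OHT and 1.93, 1.57 and 1.0 before it in shRNA cells, and 2.60, 2.63 and 2.73 after 4-OHT and 3.11, 3.06 and 2.98 before it in control cells (log2 relative to the 75th percentile of the array). It was lower in shRNA than in control cells by 1.82 on the log2 scale over both treatments (lower on 6 of 6 shRNA arrays; exact two-sided permutation p = 0.005, the smallest that 400 relabellings within treatment can give). All 6 macrophage markers listed rose with 4-OHT in both vectors, with summed levels of 3147% to 3835% of the array's 75th percentile after 4-OHT and 1078% to 1178% before it in shRNA cells, and of 4284% to 5972% after 4-OHT and 1197% to 1381% before it in control cells. Of 7 progenitor markers tested, 4 fell and 1 (Ptprc) rose in both vectors, with summed levels of 8632% to 11630% after 4-OHT and 14225% to 16462% before it in shRNA cells, and of 9148% to 12697% after 4-OHT and 14955% to 17766% before it in control cells. Of the 6 macrophage markers, 4 were well above background on each array before 4-OHT and 5 or 6 after it. Of 8 progenitor markers listed, 6 were well above background before it and 7 after it. Both erythroid markers tested (Klf1 and Epor) and 1 of 2 mast cell markers tested (Mcpt8) fell in both vectors. Of 3 erythroid markers on the array, 2 were well above background before 4-OHT and 1 or 2 after it. Where a marker met the filter only through the group where it was high, the filter favoured its change. The erythroid sum was 10.2% to 11.9% after 4-OHT and 25.4% to 33.5% before it in shRNA cells, and 9.48% to 13.0% after 4-OHT and 27.2% to 33.3% before it in control cells. The mast cell sum was 49.6% to 51.2% after 4-OHT and 90.3% to 102% before it in shRNA cells, and 43.0% to 51.8% after 4-OHT and 91.1% to 98.7% before it in control cells. Of 1 T cell marker and 1 B cell marker tested, the T cell marker Cd3e fell in shRNA cells (log2 -0.32, adjusted p = 0.0291). None of 7 proliferation genes passed in either 4-OHT comparison, with 2 of 7 at an unadjusted p under 0.05 in shRNA cells and 0 of 7 in control cells. No megakaryocyte or epithelial marker was well above background on any array. Slide and group were entangled: on slide 1 were control array A after 4-OHT and control arrays A, B and C before it, on slide 2 shRNA arrays A and B before 4-OHT and control arrays B and C after it, and on slide 3 the remaining 4 arrays, all of shRNA cells. Within a treatment the 2 vectors shared no slide.

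Cells build cholesterol from acetyl-CoA through mevalonate, isoprenoid diphosphates and squalene, and they build fatty acids from the same acetyl-CoA through malonyl-CoA. The genes of both routes are targets of the sterol regulatory element binding proteins (SREBPs), transcription factors that are held in the endoplasmic reticulum by Scap and the Insig proteins when sterol is plentiful and released when it is scarce. SREBPs bind the sterol regulatory element (SRE) beside NF-Y, which binds CCAAT boxes. In macrophages the oxysterol receptors LXR drive cholesterol export and also induce Srebf1.

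Promoters were read from RefSeq (build GRCm38.p6) for the 24 of 31 genes that the table held, 32 promoters in all, each running from 250 bases before to 50 bases after the start. The SRE core TCACNCCAC, sought on both strands, was in 1 of these 32 promoters (3.12%) and in 1.24% of all 32851 promoters of the same length. The NF-Y box CCAAT was in 65.6% of the 32 and 37.4% of all, and the Sp1 box GGGCGG in 75% of the 32 and 35.7% of all. A match is a description of the letters and not a binding site. The 250 bases before the start are shown for the gene with the SRE core (Hmgcs1) and for large fallers that had 1 promoter entry (Mvd, Tm7sf2, Hsd17b7, Nsdhl and Insig1). These bases are also shown for Fasn, which fell only on a second probe not used in the counts, and for Mvk, which passed in no comparison. They lie at chr13:119690101-119690350 on the plus strand (Hmgcs1), chr8:122443423-122443672 on the minus strand (Mvd), chr5:114444019-114444268 on the plus strand (Mvk), chr19:6067851-6068100 on the minus strand (Tm7sf2), chr1:169969206-169969455 on the minus strand (Hsd17b7), chrX:72918271-72918520 on the plus strand (Nsdhl), chr5:28071162-28071411 on the plus strand (Insig1) and chr11:120824548-120824797 on the minus strand (Fasn). Capitals mark CCAAT or its reverse complement ATTGG and, in Hmgcs1, the SRE core, and each sequence ends at the base before the start.
Hmgcs1: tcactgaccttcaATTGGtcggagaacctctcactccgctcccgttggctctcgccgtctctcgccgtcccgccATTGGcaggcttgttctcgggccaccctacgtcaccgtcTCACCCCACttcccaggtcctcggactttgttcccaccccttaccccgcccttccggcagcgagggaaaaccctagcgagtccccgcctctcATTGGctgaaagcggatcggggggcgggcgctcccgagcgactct
Mvd: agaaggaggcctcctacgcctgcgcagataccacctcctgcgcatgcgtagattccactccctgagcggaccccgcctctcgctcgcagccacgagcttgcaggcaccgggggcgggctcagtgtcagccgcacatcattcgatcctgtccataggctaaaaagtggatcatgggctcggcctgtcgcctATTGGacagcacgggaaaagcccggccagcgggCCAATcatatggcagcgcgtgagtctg
Mvk: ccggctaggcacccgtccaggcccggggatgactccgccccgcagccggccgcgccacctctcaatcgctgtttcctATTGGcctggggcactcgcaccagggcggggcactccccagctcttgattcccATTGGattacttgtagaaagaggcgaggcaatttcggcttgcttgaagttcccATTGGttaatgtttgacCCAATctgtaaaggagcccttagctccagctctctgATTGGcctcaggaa
Tm7sf2: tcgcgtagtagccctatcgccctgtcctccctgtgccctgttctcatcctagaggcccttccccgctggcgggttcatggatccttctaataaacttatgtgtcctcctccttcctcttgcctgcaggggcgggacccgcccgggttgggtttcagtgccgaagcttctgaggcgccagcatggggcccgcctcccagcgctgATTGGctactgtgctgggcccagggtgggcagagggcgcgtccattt
Hsd17b7: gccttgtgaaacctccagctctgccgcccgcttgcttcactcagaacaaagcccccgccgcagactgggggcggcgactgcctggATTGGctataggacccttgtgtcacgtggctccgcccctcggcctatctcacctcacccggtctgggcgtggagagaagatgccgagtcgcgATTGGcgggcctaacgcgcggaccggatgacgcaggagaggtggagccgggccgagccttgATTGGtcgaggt
Nsdhl: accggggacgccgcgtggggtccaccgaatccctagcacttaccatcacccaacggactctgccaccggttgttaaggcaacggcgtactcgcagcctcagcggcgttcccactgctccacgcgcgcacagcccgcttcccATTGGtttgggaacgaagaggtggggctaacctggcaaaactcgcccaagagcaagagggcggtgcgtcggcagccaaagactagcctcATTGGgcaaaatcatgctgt
Insig1: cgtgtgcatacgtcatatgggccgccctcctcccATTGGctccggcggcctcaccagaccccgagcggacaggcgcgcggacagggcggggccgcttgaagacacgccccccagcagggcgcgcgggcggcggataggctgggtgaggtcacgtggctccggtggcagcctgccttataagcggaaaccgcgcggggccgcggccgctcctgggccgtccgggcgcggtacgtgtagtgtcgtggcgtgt
Fasn: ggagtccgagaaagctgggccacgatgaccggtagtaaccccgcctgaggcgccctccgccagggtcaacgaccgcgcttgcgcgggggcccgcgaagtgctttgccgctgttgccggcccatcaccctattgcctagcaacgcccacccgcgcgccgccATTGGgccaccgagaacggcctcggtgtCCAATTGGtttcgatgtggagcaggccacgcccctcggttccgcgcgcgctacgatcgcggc

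The SRE core of Hmgcs1 lay from base -137 to base -129 relative to the start. The promoter of Mvk held 5 NF-Y boxes in these 250 bases, at bases -173, -120, -67, -50 and -14 (their left ends), against 3 in Hmgcs1, 3 in Hsd17b7, 2 in Mvd and 1 in Tm7sf2. Of the 3 in Fasn, those at -62 and -59 overlap.

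The 4-OHT comparisons set the levels of these genes after 24 h of 4-OHT against those before it, in cells with and without the Hnrnpa0 hairpin. No group here was kept in vehicle, and none lacked the PU.1 fusion. The parts of PU.1, of 4-OHT itself and of time in culture therefore cannot be told apart. Most of the sterol genes had lower levels after 24 h of 4-OHT in both vectors. In shRNA cells 21 of the 29 genes tested fell and 2 rose (Npc1 and Elovl6), where 21.8% of all genes tested fell and 16.5% rose (limma adjusted p under 0.05). In control cells 22 fell and the same 2 rose, where 23% of all genes fell and 17.5% rose. The median log2 change was -0.43 over the 29 genes and -0.08 over all genes in shRNA cells, and -0.54 over the 29 genes and -0.07 over all genes in control cells. A total of 20 genes fell in both vectors, and 4 passed in neither (Mvk, Fdps, Fasn and Scd2). Of these 4, the chosen probes of Fasn and Scd2 were saturated on every array and could not show a change. That of Fdps was saturated on every array before 4-OHT. The falls ranged from 1.16-fold to 2.13-fold in shRNA cells and from 1.22-fold to 2.20-fold in control cells. In these bulk samples, fewer cells with the RNA and less RNA per cell cannot be told apart. In the same comparisons all 6 macrophage markers rose in both vectors. Of 7 progenitor markers tested, 4 fell and 1 (Ptprc) rose. Both erythroid markers tested and 1 of 2 mast cell markers tested fell. The sums of these markers are given above, and their part in these changes was not tested. Elovl6 entered the test only through its arrays after 4-OHT, so the filter itself favoured its rise.

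**Figure D1:**
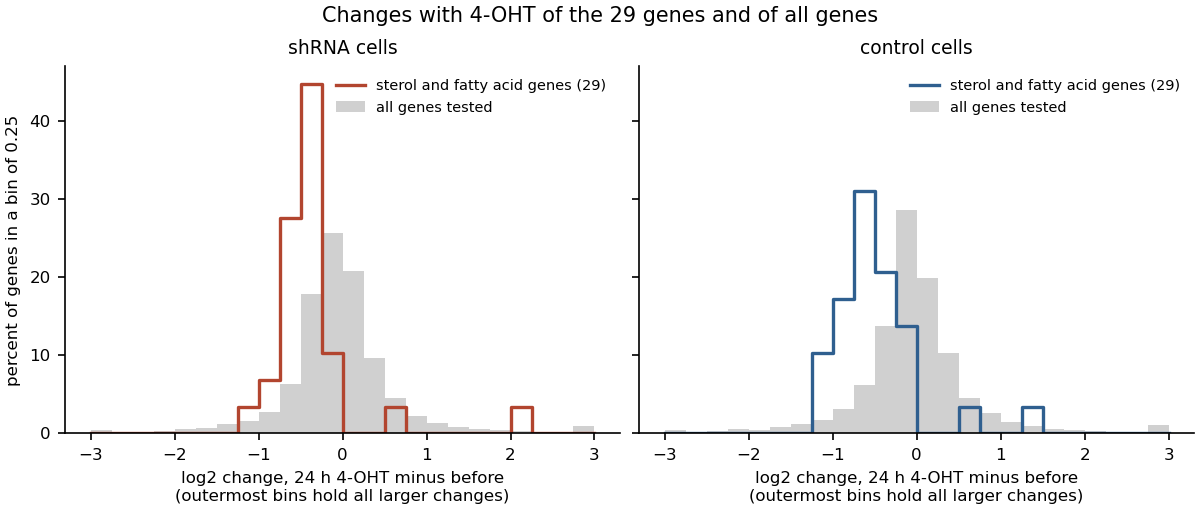
Share of genes (y axis, percent) by log2 change, 24 h of 4-OHT minus before (x axis, bins of 0.25), in shRNA cells (left) and control cells (right). The outline for the 29 sterol and fatty acid genes lies left of the grey bars for all 15061 genes, with medians of -0.43 against -0.08 in shRNA cells and -0.54 against -0.07 in control cells.

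Levels below are log2 processed signal relative to the 75th percentile of the same array, in the order of arrays A, B and C. They can be compared across arrays for 1 probe and not between probes. Beside the counts by role below, 21.8% of all genes fell and 16.5% rose in shRNA cells. In control cells 23% of all genes fell and 17.5% rose. The share of all genes whose groups did not overlap is not given. A lack of overlap below therefore describes the arrays of a gene and does not set it apart from other genes. Folds are between group means on that scale, SE is that of the limma fit, and adjusted p is by Benjamini-Hochberg over all 15061 genes.

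The mevalonate pathway had 4 of 7 genes lower after 4-OHT in shRNA cells and 5 of 7 in control cells, and no chosen probe passed as higher. Mvd, the decarboxylase that makes isopentenyl diphosphate, had the largest fall of the pathway in both vectors. Its probe lies at chr8:121075855-121075914 on mm7, the build of the array design. The levels of Mvd were 2.48, 2.65 and 2.89 after 4-OHT and 3.38, 3.28 and 3.56 before it in shRNA cells, a 1.66-fold fall (log2 -0.73, SE 0.13, adjusted p = 0.000949). In control cells they were 2.59, 2.25 and 2.26 after 4-OHT and 3.41, 3.30 and 3.39 before it, a 2.00-fold fall (log2 -1.0, SE 0.13, adjusted p = 9.76e-05). In both vectors every array after 4-OHT lay below every array before it.

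Hmgcs1, the synthase that makes HMG-CoA, fell in both vectors. Its levels were -1.85, -1.80 and -1.54 after 4-OHT and -0.91, -1.28 and -1.58 before it in shRNA cells, a 1.39-fold fall (log2 -0.48, SE 0.16, adjusted p = 0.0418). Control arrays read -1.47, -1.45 and -1.76 after 4-OHT and -0.85, -0.86 and -0.63 before it, a 1.72-fold fall (log2 -0.78, SE 0.16, adjusted p = 0.00303). The groups overlapped in shRNA cells, through array C before 4-OHT, and did not in control cells. Leaving out 1 array at a time gave adjusted p between 0.00843 and 0.138 in shRNA cells. The call was lost in 7 of these 12 fits, those without array A or B of the shRNA cells after 4-OHT, of the shRNA cells before it or of the control cells before it, or without control array B after 4-OHT. It was also lost with slide as a fixed block (log2 -0.15, adjusted p = 0.596) and as a random block (adjusted p = 0.155), and under 8 of 13 other settings in all.

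Pmvk, the kinase that makes mevalonate diphosphate, fell in both vectors with no overlap. Its levels were 3.15, 3.19 and 3.27 after 4-OHT and 3.94, 3.88 and 3.93 before it in shRNA cells, a 1.64-fold fall (log2 -0.71, SE 0.10, adjusted p = 0.00023). In control cells they were 3.57, 3.23 and 3.18 after 4-OHT and 3.95, 3.92 and 4.10 before it, a 1.59-fold fall (log2 -0.67, SE 0.10, adjusted p = 0.000334). Idi1, which interconverts the isoprenoid diphosphates, fell too, with log2 changes of -0.35 in shRNA cells and -0.54 in control cells. Acat2, the thiolase that starts the pathway, passed in control cells (log2 -0.48, adjusted p = 0.0146) and not in shRNA cells (log2 -0.31, adjusted p = 0.0896). Its call in control cells was lost without control array A or C before 4-OHT or control array B after it, and with slide as a fixed block (log2 -0.34, adjusted p = 0.219) or as a random block (adjusted p = 0.0545). With the array letter as a block Acat2 passed in shRNA cells (adjusted p = 0.0341). Mvk, the kinase ahead of Pmvk, had log2 differences of -0.09 in shRNA cells and -0.11 in control cells, and its groups overlapped in both.

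Fdps, the farnesyl diphosphate synthase, gave opposite signs on its 2 probes. The brighter probe (chr3:89208691-89208831, mm7) was saturated on all arrays before 4-OHT and on 2 shRNA arrays after it, and had log2 differences of -0.43 in shRNA cells (adjusted p = 0.0931) and -0.51 in control cells (adjusted p = 0.0513). The other probe (chr3:89212905-89212964, mm7) was saturated on no array and read 0.25, 0.60 and 0.70 after 4-OHT and -0.26, -0.04 and -0.38 before it in shRNA cells, a 1.68-fold higher level after 4-OHT (log2 0.74, SE 0.15, adjusted p = 0.00268 over all probes). In control cells this probe read 0.07, 0.45 and 0.38 after 4-OHT and -0.11, -0.11 and 0.16 before it (log2 0.32, SE 0.15, adjusted p = 0.121). The array gives no single direction for Fdps.

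All 10 tested genes from squalene to cholesterol fell in both vectors, where 21.8% of all genes fell in shRNA cells and 23% in control cells. In none of the 10 did the arrays after 4-OHT overlap those before it, a trait whose share over all genes is not given. Ebp, the sterol isomerase that could not be tested, read 4.91 and 4.82 after 4-OHT (arrays A and B) and 4.68 before it (array C) in shRNA cells, and 5.12 and 5.05 after 4-OHT (arrays B and C) and 4.69 before it (array B) in control cells, so its usable spots were higher after 4-OHT. The median log2 change of the 10 tested genes was -0.53 in shRNA cells and -0.74 in control cells. Tm7sf2, a sterol reductase acting after lanosterol (probe at chr19:5957688-5957747, mm7), had the largest fall of all 29 genes. Its levels were 1.09, 1.09 and 1.16 after 4-OHT and 2.18, 2.23 and 2.21 before it in shRNA cells, a 2.13-fold fall (log2 -1.09, SE 0.07, adjusted p = 5.88e-07). Control arrays read 1.24, 1.21 and 1.04 after 4-OHT and 2.23, 2.36 and 2.31 before it, a 2.20-fold fall (log2 -1.14, SE 0.07, adjusted p = 3.44e-07). The distance between the groups was several times the spread within any of them.

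Hsd17b7 and Nsdhl act together in removing methyl groups from the sterol ring, Hsd17b7 as the ketoreductase and Nsdhl as the decarboxylating dehydrogenase. Hsd17b7 levels were 1.90, 2.05 and 2.06 after 4-OHT and 2.99, 2.90 and 2.73 before it in shRNA cells, a 1.82-fold fall (log2 -0.87, SE 0.09, adjusted p = 1.78e-05). In control cells they were 2.07, 1.92 and 2.05 after 4-OHT and 2.90, 3.05 and 3.02 before it, a 1.97-fold fall (log2 -0.98, SE 0.09, adjusted p = 6.25e-06). The arrays after 4-OHT all lay below those before it in both vectors.

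Nsdhl fell in both vectors with no overlap. Its levels were 0.05, -0.0021 and 0.08 after 4-OHT and 0.53, 0.70 and 0.78 before it in shRNA cells, a 1.54-fold fall (log2 -0.63, SE 0.09, adjusted p = 0.000252). Control arrays read -0.39, -0.44 and -0.61 after 4-OHT and 0.35, 0.46 and 0.57 before it, a 1.92-fold fall (log2 -0.94, SE 0.09, adjusted p = 1.12e-05). The difference between these responses did not pass and is given with the vector comparisons.

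The other 7 tested genes of this stretch fell by 1.21-fold to 1.47-fold in shRNA cells and by 1.32-fold to 1.77-fold in control cells. They are Fdft1 (squalene synthase), Sqle (squalene epoxidase), Lss (lanosterol synthase), Cyp51 (lanosterol demethylase), Msmo1 (the methylsterol oxidase that acts with Nsdhl and Hsd17b7), Sc5d (a sterol desaturase) and Dhcr7 (the reductase of the last step to cholesterol). Lss had the largest fall of the 7 in control cells and Dhcr7 in shRNA cells. The only probe of Msmo1 was saturated on 1 control array before 4-OHT. In shRNA cells the call of Fdft1 was lost without shRNA array A after 4-OHT, and with quantile (adjusted p = 0.0566) or normexp processing (adjusted p = 0.0565). That of Sc5d was lost without shRNA array A after or before it, and under 6 of 13 other settings, with log2 changes down to -0.17. Sqle and Sc5d were fitted without control array A after 4-OHT, Sc5d also without shRNA array B before it, and Lss without control array A before it, since the scanner software had rejected those spots.

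**Figure D2:**
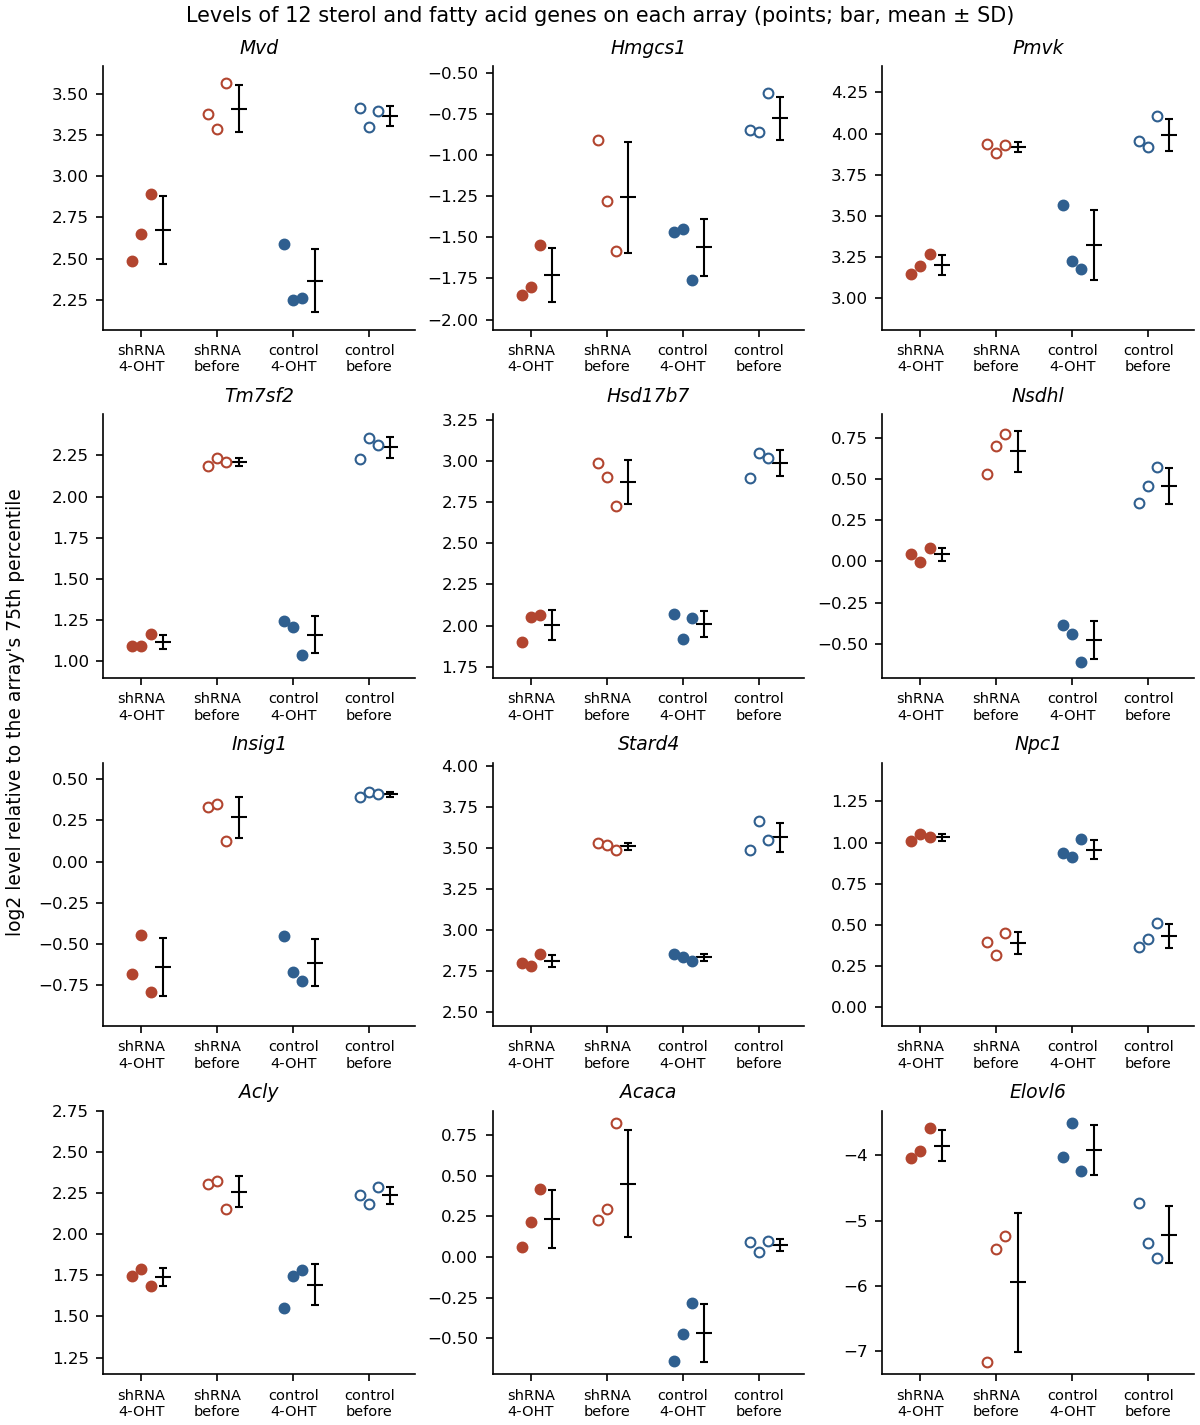
Log2 level relative to the array's 75th percentile (y axis, its range differing by panel) of 12 genes, 3 for each role, in shRNA cells after and before 4-OHT and control cells after and before it; points are single arrays and the bar is the mean ± SD (n = 3). Tm7sf2, Hsd17b7, Insig1 and Stard4 sit lower after 4-OHT in both vectors with no overlap, and Npc1 and Elovl6 sit higher. Hmgcs1 and Acaca overlap in shRNA cells.

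Among the genes that sense and move sterol, 6 of 7 fell and 1 rose in shRNA cells, and 5 fell and 1 rose in control cells. Insig1, which retains the SREBP and Scap complex in the endoplasmic reticulum and is itself an SREBP target, had the largest fall of these (probe at chr5:27110161-27110220, mm7). Its levels were -0.69, -0.45 and -0.79 after 4-OHT and 0.33, 0.35 and 0.13 before it in shRNA cells, a 1.88-fold fall (log2 -0.91, SE 0.11, adjusted p = 5.84e-05). In control cells they were -0.45, -0.67 and -0.72 after 4-OHT and 0.40, 0.42 and 0.41 before it, a 2.03-fold fall (log2 -1.02, SE 0.11, adjusted p = 2.19e-05). All 6 arrays after 4-OHT were below 0 and all 6 before it above 0.

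Stard4, a soluble carrier of cholesterol between membranes, fell in both vectors. Its levels were 2.8, 2.78 and 2.86 after 4-OHT and 3.53, 3.52 and 3.48 before it in shRNA cells, a 1.62-fold fall (log2 -0.70, SE 0.06, adjusted p = 6.64e-06). Control arrays read 2.85, 2.84 and 2.81 after 4-OHT and 3.48, 3.66 and 3.55 before it, a 1.66-fold fall (log2 -0.73, SE 0.06, adjusted p = 4.01e-06). Npc1, which carries cholesterol out of the lysosome, moved the other way. Its levels were 1.01, 1.05 and 1.03 after 4-OHT and 0.39, 0.32 and 0.45 before it in shRNA cells, a 1.56-fold rise (log2 0.64, SE 0.06, adjusted p = 1.81e-05). In control cells they were 0.94, 0.91 and 1.02 after 4-OHT and 0.37, 0.41 and 0.51 before it, a 1.44-fold rise (log2 0.52, SE 0.06, adjusted p = 7.37e-05). Neither gene had overlapping groups.

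The transcription factors of the programme fell too. Srebf2, the SREBP chiefly of sterol genes, had log2 changes of -0.46 in shRNA cells (adjusted p = 0.000253) and -0.47 in control cells (adjusted p = 0.000187). Taken as the mean over its probes, Srebf2 did not pass in either vector (log2 -0.28, adjusted p = 0.0695 in shRNA cells, and log2 -0.16, adjusted p = 0.284 in control cells). Srebf1, the SREBP chiefly of fatty acid genes, had log2 changes of -0.38 in shRNA cells (adjusted p = 0.00166) and -0.45 in control cells (adjusted p = 0.000487). The arrays measure their RNA and not the cleaved proteins. Insig2, the second Insig protein, had log2 changes of -0.43 in shRNA cells and -0.28 in control cells. Its call in control cells was lost under 5 of 13 other settings, among them slide as a fixed block (log2 -0.14, adjusted p = 0.242). Scap, the SREBP escort, had a log2 change of -0.21 in shRNA cells (adjusted p = 0.0492) and of -0.16 in control cells (adjusted p = 0.195), the control value resting on 2 arrays after 4-OHT and 2 before it. The Scap call in shRNA cells passed in 2 of the 12 fits that left out 1 array, those without control array A or C after 4-OHT, and was lost under 9 of 12 other settings.

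**Figure D3:**
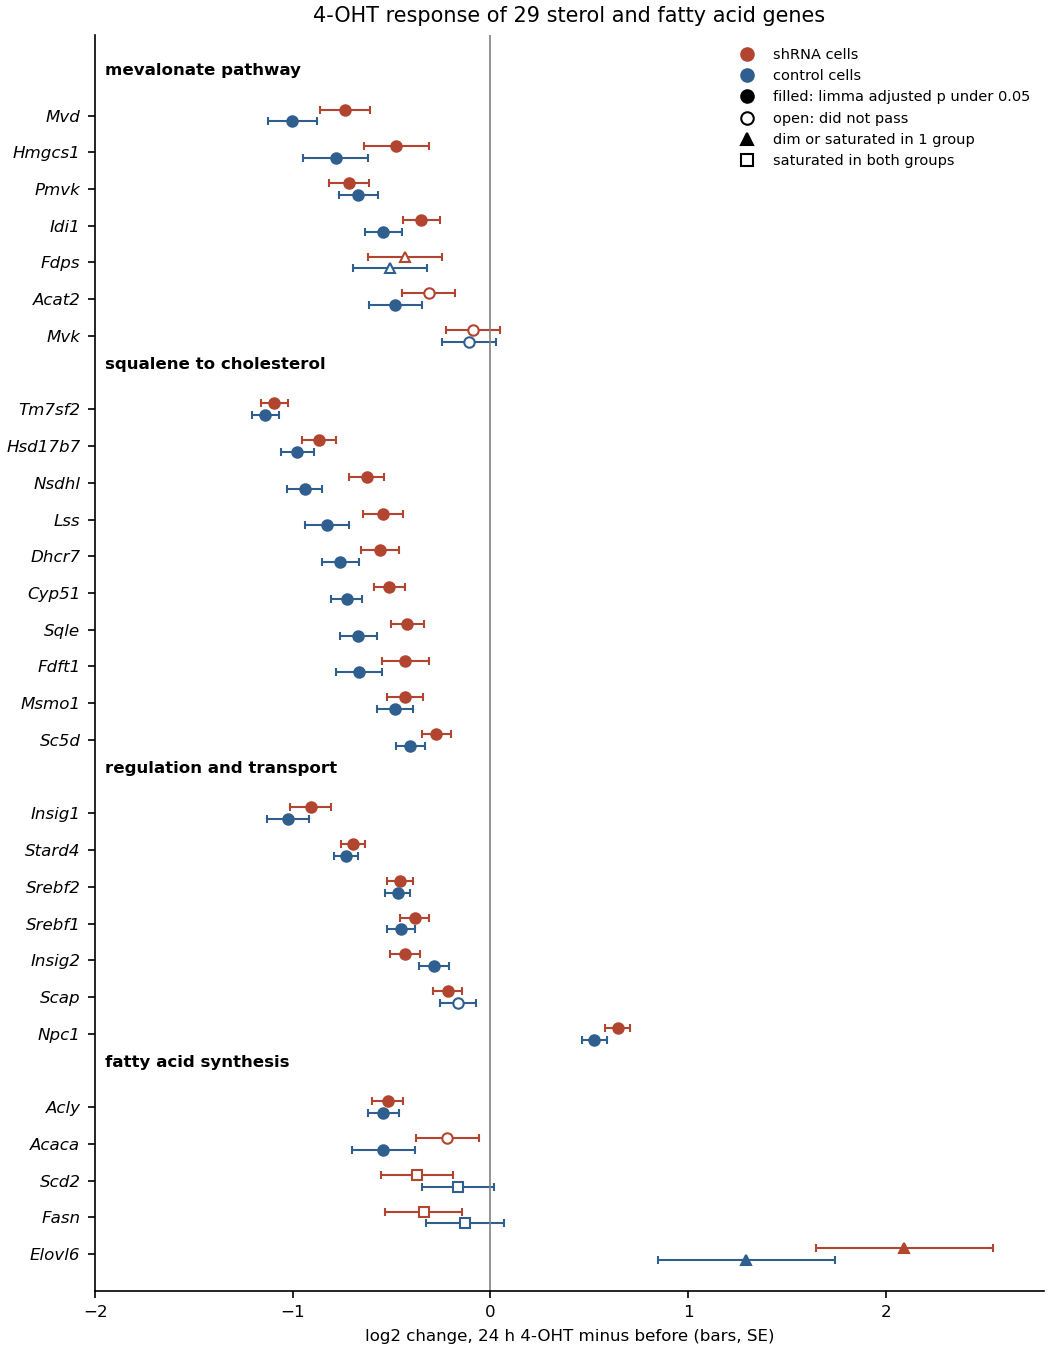
Log2 change, 24 h of 4-OHT minus before (x axis; bars, SE of the limma fit), of the 29 tested genes by role, in shRNA cells (red) and control cells (blue). Filled symbols passed at an adjusted p under 0.05, triangles were dim or saturated in 1 group and squares saturated in both; 10 of 10 genes from squalene to cholesterol lie left of 0 in both vectors, and Npc1 and Elovl6 lie right of it.

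Of the 5 tested genes of fatty acid synthesis, 1 fell and 1 rose in shRNA cells, and 2 fell and 1 rose in control cells. Acly, which makes cytosolic acetyl-CoA from citrate, had levels of 1.74, 1.79 and 1.68 after 4-OHT and 2.30, 2.32 and 2.15 before it in shRNA cells, a 1.43-fold fall (log2 -0.52, SE 0.08, adjusted p = 0.000401). Control arrays read 1.55, 1.75 and 1.78 after 4-OHT and 2.24, 2.18 and 2.28 before it, a 1.46-fold fall (log2 -0.54, SE 0.08, adjusted p = 0.000268). Its groups did not overlap in either vector.

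Acaca, the acetyl-CoA carboxylase that makes malonyl-CoA, fell in control cells and did not pass in shRNA cells. Its levels were 0.06, 0.21 and 0.42 after 4-OHT and 0.22, 0.30 and 0.83 before it in shRNA cells, with overlap (log2 -0.22, SE 0.16, adjusted p = 0.297). In control cells they were -0.64, -0.47 and -0.28 after 4-OHT and 0.09, 0.03 and 0.10 before it, a 1.46-fold fall with no overlap (log2 -0.54, SE 0.16, adjusted p = 0.0190). The control call was lost without control array A or B after 4-OHT, or control array A or C before it. With slide as a fixed block Acaca passed as lower in shRNA cells as well (log2 -0.59, adjusted p = 0.0116).

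Elovl6, which lengthens palmitate to stearate, was dim before 4-OHT and brighter after it. It read -4.03, -3.94 and -3.58 after 4-OHT and -7.17, -5.44 and -5.23 before it in shRNA cells, and -4.02, -3.50 and -4.24 after 4-OHT and -4.73, -5.34 and -5.57 before it in control cells. It was not well above background on any array before 4-OHT, so its fold is a bound, taken per array against the dimmest probe that was still well above background, or against its own signal if higher: at least 2.30-fold in shRNA cells and at least 1.67-fold in control cells. Since it met the filter on dim probes only through its arrays after 4-OHT, its p-values are not read as support. With slide as a fixed block it did not pass in either vector (adjusted p = 0.135 in shRNA cells and 0.176 in control cells). The control call was lost in 8 of the 12 fits that left out 1 array, those leaving out an array of either vector after 4-OHT (6 fits) or control array B or C before it.

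Fasn, the fatty acid synthase, and Scd2, a stearoyl-CoA desaturase, were saturated on all 12 arrays on the probes chosen for brightness, so those probes cannot show a change. Fasn had a second probe (chr11:120915397-120915456, mm7) saturated on no array. It read -0.74, -0.58 and -0.47 after 4-OHT and 0.10, 0.05 and 0.37 before it in shRNA cells, a 1.70-fold fall (log2 -0.77, SE 0.11, adjusted p = 0.000267 over all probes). In control cells it read -1.23, -1.07 and -0.96 after 4-OHT and 0.03, -0.06 and 0.05 before it, a 2.13-fold fall (log2 -1.09, SE 0.11, adjusted p = 1.82e-05). On this probe the groups did not overlap in either vector. Scd2 had no other probe. Scd1, the other desaturase, read between -7.32 and -6.62 on the 12 arrays and was well above background on none.

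Other probes of the same genes mostly gave the same sign. Of 16 genes with several probes passing the filter, 14 had all probes of 1 sign in shRNA cells (all but Fdps and Nsdhl) and 14 in control cells (all but Fdps and Srebf2). Beside the chosen probes of the genes that fell, 18 of 19 further probes were lower after 4-OHT in shRNA cells, 13 of them passing, and 21 of 22 in control cells, 15 of them passing.

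**Figure D4:**
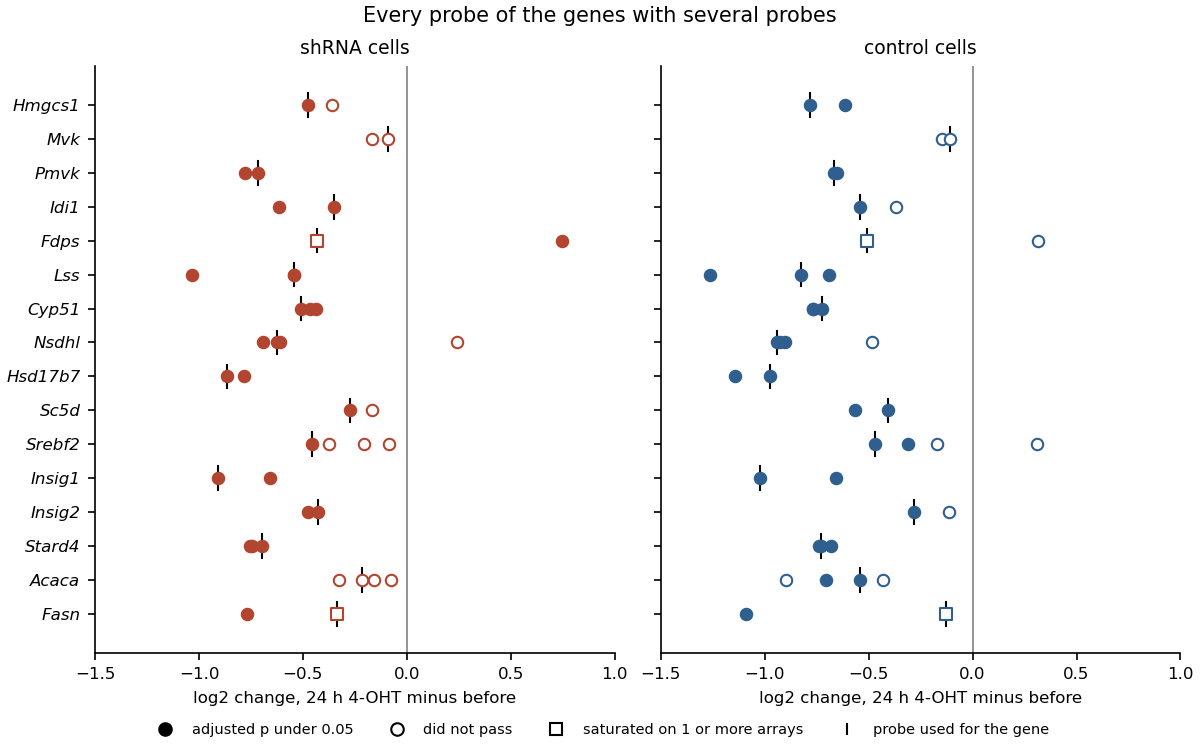
Log2 change, 24 h of 4-OHT minus before (x axis), of every probe passing the filter for the 16 genes with several such probes, in shRNA cells (left) and control cells (right); a tick marks the probe used for the gene and squares were saturated on 1 or more arrays. Most probes of a gene lie on 1 side of 0, and the unsaturated Fdps probe lies at 0.74 in shRNA cells and 0.32 in control cells, across 0 from its saturated one.

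The same direction was read within single slides, which held fewer arrays. Slide 3 held shRNA arrays A, B and C after 4-OHT and array C before it. There all 23 genes called in shRNA cells kept their sign. The median log2 change on slide 3 was -0.54 over the 29 genes and -0.09 over all genes. Slide 1 held control array A after 4-OHT and arrays A, B and C before it. There all 21 genes called in control cells that had a value kept their sign. The median on slide 1 was -0.46 over the 25 genes with a value and -0.02 over all genes. These arrays were part of the fit that made the calls, so a kept sign was largely built in and is not read as support. In each case 1 side rested on a single array, assumed to vary as the others did.

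Related genes were read from lists apart from the 31 members. Beside the counts of each list, 21.8% of all genes tested fell and 16.5% rose in shRNA cells. In control cells 23% of all genes fell and 17.5% rose. Of 17 other sterol and SREBP genes tested, 2 fell and 5 rose in each vector. Lipa, the lysosomal lipase that frees cholesterol from its esters, rose 2.72-fold in shRNA cells and 3.17-fold in control cells. Erlin1, an endoplasmic reticulum protein, rose 1.51-fold in shRNA cells and 1.58-fold in control cells.

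Of 19 other fatty acid and lipogenic genes tested, 13 fell in each vector, 2 rose in shRNA cells and 3 in control cells. Thrsp, a lipogenic SREBP target, fell 5.87-fold in shRNA cells and 6.13-fold in control cells. Me1, the malic enzyme that supplies NADPH, fell 3.44-fold in shRNA cells and 4.17-fold in control cells. The 2 largest rises were those of Acsl5, an acyl-CoA synthetase (1.27-fold in shRNA cells and 1.24-fold in control cells), and Elovl1, a fatty acid elongase (1.17-fold in shRNA cells and 1.26-fold in control cells). The median log2 change of this list was -0.40 in shRNA cells and -0.53 in control cells.

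Of 10 LXR and sterol efflux genes tested, 4 fell and 0 rose in each vector (limma). At an unadjusted p under 0.05 in either direction there were 6 in shRNA cells and 5 in control cells. Over all 15061 genes there were 7126 in shRNA cells and 7205 in control cells. The median log2 change of this list was -0.28 in shRNA cells and -0.23 in control cells. Abca1, the exporter of cholesterol to apolipoproteins and a target of LXR, fell at least 5.45-fold in shRNA cells and at least 4.00-fold in control cells. It was not well above background after 4-OHT, so these folds are bounds. Abca1 is among the 4 that fell, but it met the filter on dim probes only through its arrays before 4-OHT. The filter itself thus favoured its fall, and its p-values are not read as support. Nr1h3, which encodes LXR alpha, fell 2.25-fold in shRNA cells and 2.47-fold in control cells. Of 11 fatty acid oxidation genes tested, 3 fell and 1 rose in shRNA cells, where 21.8% of all genes fell and 16.5% rose. In control cells 3 fell and 2 rose, where 23% of all genes fell and 17.5% rose. The median log2 change of these 11 was -0.004 in shRNA cells and -0.02 in control cells. Cpt1a, which admits fatty acids to mitochondria, rose 1.59-fold in shRNA cells and 1.52-fold in control cells, and Acadl, an acyl-CoA dehydrogenase, rose 1.19-fold in control cells. Pparg, a nuclear receptor of lipid storage, fell 1.86-fold in shRNA cells and 1.96-fold in control cells, and Acadm, another acyl-CoA dehydrogenase, fell 1.44-fold in shRNA cells and 1.28-fold in control cells.

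The vector comparisons addressed whether lowering Hnrnpa0, an RNA-binding protein, altered these genes. Before 4-OHT none of the 29 genes passed, where 0.378% of all genes did (limma). At an unadjusted p under 0.05 there were 4 of the 29, and 3360 of all 15061 genes. The 4 were Hmgcs1 (log2 -0.48, adjusted p = 0.14), Srebf2 (log2 -0.18, adjusted p = 0.15), Acaca (log2 0.38, adjusted p = 0.199) and Nsdhl (log2 0.21, adjusted p = 0.203). The per-array levels above show Hmgcs1 at -0.91, -1.28 and -1.58 in shRNA cells and at -0.85, -0.86 and -0.63 in control cells, with no overlap. Such a lack of overlap was seen for 5 of the 29 genes with lower and 4 with higher levels in shRNA cells, though none passed. Hmgcs1 passed, lower in shRNA cells, when shRNA array A before 4-OHT was left out. The log2 differences of the 29 genes ran from -0.73 to 0.38 with a median of -0.05, against -0.03 over all genes.

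After 4-OHT, 6 of the 29 genes were higher in shRNA than in control cells and none was lower, where 7.85% of all genes were higher and 8.82% lower. The number of all genes called there, 2512, fell to 308 without control array B after 4-OHT. The 6 genes were Acaca (1.62-fold, log2 0.70, SE 0.16), Nsdhl (1.44-fold, log2 0.52, SE 0.09), Lss (1.43-fold, log2 0.51, SE 0.10), Fdft1 (1.34-fold, log2 0.43, SE 0.12), Dhcr7 (1.29-fold, log2 0.37, SE 0.10) and Cyp51 (1.26-fold, log2 0.34, SE 0.08). Their adjusted p ran from 0.0126 for Nsdhl to 0.0376 for Fdft1. The median over the 29 genes was 0.04, against -0.04 over all genes. Srebf2 had the lowest p among the members with lower values in shRNA cells (log2 -0.17, adjusted p = 0.0956).

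For each of the 6 genes the arrays of the vectors did not overlap. Of the 29 genes this was so for 7 that were higher in shRNA cells, the 6 among them, and for 1 that was lower. The share over all genes is not given. Lss read 1.46, 1.55 and 1.70 in shRNA cells and 0.99, 1.10 and 1.08 in control cells. Fdft1 read 1.2, 1.32 and 1.46 in shRNA cells and 1.01, 0.89 and 0.80 in control cells. Both of these enzymes, which act on either side of Sqle, were higher on every shRNA array. Cyp51 read 1.21, 1.32 and 1.41 in shRNA cells and 1.03, 0.94 and 0.96 in control cells. Dhcr7 read -0.79, -0.59 and -0.44 in shRNA cells and -0.99, -0.93 and -1.02 in control cells. The unsaturated Fasn probe was also higher in shRNA cells (log2 0.49, adjusted p = 0.0205 over all probes).

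These 6 calls did not hold when slide was taken into account. With slide as a fixed block the log2 differences were 0.05 for Acaca, 0.40 for Nsdhl, 0.17 for Lss, 0.11 for Fdft1, 0.33 for Dhcr7 and 0.16 for Cyp51, with adjusted p from 0.705 to 0.984. With slide as a random block the lowest adjusted p was 0.138, for Nsdhl. No slide held both vectors after 4-OHT, so there is no value within a slide, and slide and vector can be separated only through the other arrays of those slides. Leaving out control array A after 4-OHT left 3 of the 6 genes passing, and leaving out control array B, shRNA array B or shRNA array C after 4-OHT left only Nsdhl. Of 7 proliferation genes, 3 (Top2a, Cdk1 and Mcm2) were also higher in shRNA cells, with summed levels of 12055% to 12977% of the 75th percentile in shRNA cells and 10913% to 12717% in control cells. The fibroblast gene Col1a2 was also higher in shRNA cells, of the progenitor markers Kit was higher (log2 0.49) and Ptprc lower (log2 -0.78), and the macrophage gene Cd14 was lower, and the part of any of these in the 6 differences was not tested.

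**Figure D5:**
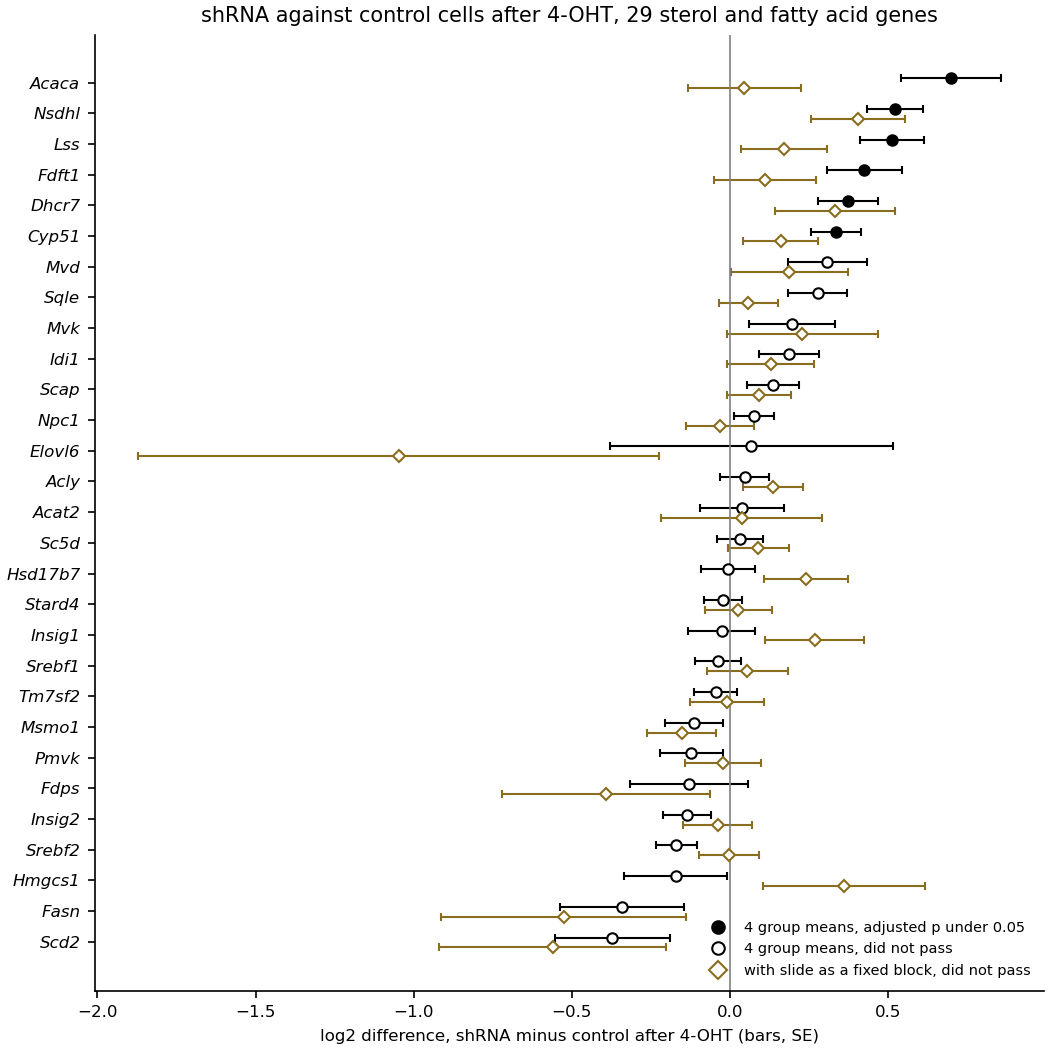
Log2 difference, shRNA minus control cells after 4-OHT (x axis; bars, SE), for the 29 genes, from the fit of 4 group means (circles, filled where the adjusted p was under 0.05) and with slide as a fixed block (diamonds). The 6 filled circles lie between 0.34 and 0.70, and none of the diamonds passed.

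The difference between the 4-OHT responses, shRNA minus control, passed for none of the 29 genes, where 0% of all genes passed (limma; 1 of the 29 and 790 of all genes at an unadjusted p under 0.05). The smallest p-values were those of Nsdhl (log2 0.31, adjusted p = 0.931), Sqle (log2 0.25, adjusted p = 0.954) and Cyp51 (log2 0.21, adjusted p = 0.954). Sqle read 4.32, 4.35 and 4.49 after 4-OHT and 4.68, 4.79 and 4.95 before it in shRNA cells, against 4.15 and 4.07 after 4-OHT (arrays B and C) and 4.76, 4.75 and 4.82 before it in control cells. The difference was below 0 for 5 of the 29 genes and for 7691 of all 15061, with medians of 0.11 over the 29 genes and -0.00 over all genes. With slide as a fixed block it was below 0 for 14 of the 29 genes, with a median of 0.03. That Acaca and Acat2 passed in control cells and not in shRNA cells is therefore no shown difference between the vectors.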

How the data were processed

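Total RNA of 12 samples was measured on 1-colour Agilent arrays. The deposited scanner files, made with Agilent Feature Extraction (version 9.5 per the submitters' processing notes), hold processed Cy3 intensity, detrended and background-subtracted per the file headers, with no scaling between arrays. The deposited value table holds the same intensity, rounded. Control spots and spots with an outlier flag were left out, and log2 intensity was taken minus each array's 75th percentile, which ran from 1196 to 2583. A gene was represented by its brightest probe that was well above background on 3 or more arrays, with 2 or more usable spots in every group. limma 3.58.1 in R 4.3.3 fitted 4 group means to all 12 arrays, with 5 comparisons and Benjamini-Hochberg adjustment over 15061 genes, and was tested on simulated data. The 3 arrays of a group limit the precision. Array letters are not stated to pair samples: same-letter correlations of deviations ran from -0.09 to 0.30, so the letter was not used as a block. The genes, lists and named genes (the 3 largest changes of each role in control cells, all risers, and those passing or nearest to passing between vectors) were chosen with earlier results of these data known. Alternatives were quantile and normexp processing, other filters and probes, the value table, slide, letter and leaving out arrays. Some genes of the related lists are not reported here by name.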

Additional observations from a re-analysis of the deposited data

How the results depend on the processing

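The 4-OHT counts kept within 1.5 times of 23 genes in shRNA cells and 24 in control cells under the other processing, filter, probe, slide and letter settings, from 19 to 24 in shRNA cells and from 21 to 24 in control cells. The share of all genes called moved too, from 38.3% in shRNA cells and 40.5% in control cells. Leaving aside the fits within a single slide, it was lowest with no filter on dim probes (17.6% in shRNA cells and 23.5% in control cells). It was highest with genes well above background on all arrays (41.7% and 43.9%). Within slide 3 they were 12 in shRNA cells and within slide 1 they were 13 in control cells, both chosen after seeing the data and resting on 1 array on one side. Leaving out 1 array gave 19 to 23 genes in shRNA cells, 21 to 25 in control cells, 0 to 1 for shRNA against control before 4-OHT, 1 to 7 after it and 0 throughout for the difference between the responses. Over all 15061 genes the same fits called 4646 to 6427 with 4-OHT in shRNA cells and 5152 to 6409 in control cells. For shRNA against control after 4-OHT the 6 genes became 3 with quantile normalization, 1 with no filter on dim probes, 3 with only the arrays of the groups compared, and 0 with slide as a fixed block or as a random block. All genes called there were 2512, against 358 with no filter, 1107 with only the groups compared, 1 and 0 with slide as a block, 308, 1126 and 1353 without control array B, control array A or shRNA array A after 4-OHT, and 603 and 499 without shRNA array B or C after it. Of these, 1183 were higher and 1329 lower, against 601 higher and 1096 lower with quantile normalization and 538 higher and 1205 lower with normexp. Before 4-OHT 57 of all genes were called, against 395 with quantile normalization, 314 with genes well above background on all arrays, 185 with the replicate block, 33 with the mean over probes, 10 with no filter, 2 with normexp, 1 with only the groups compared, 0 with slide as a block and 0 to 497 leaving out 1 array. The replicate block gave 22 genes in shRNA cells, 23 in control cells, 0 between vectors before 4-OHT, 6 after it and 0 for the difference between responses. It lost Hmgcs1 and Scap and gained Acat2 in shRNA cells, and lost Elovl6 in control cells. Every letter correlated best with its own only for the 4-OHT comparison in control cells (3 of 3). The 1 reversal was Fdps in shRNA cells, 0.74 on its unsaturated probe, and the cause was not tested. Of the calls, 10 of 23 in shRNA cells, 14 of 24 in control cells and 0 of 6 between vectors after 4-OHT passed under every alternative, the within-slide values included where there were any. Saturation limits Fasn, Fdps and Scd2, and signal near background limits Elovl6 and Scd1. The only probe of Msmo1 was saturated on 1 control array before 4-OHT.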
